A study of Mus musculus with 6 samples.

Results

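The BCL2 family genes that set whether a cell survives or dies were followed in cultured mouse neutrophils with and without the microRNA miR-223. The members were chosen by gene name, through listed probe sets: 9 genes, read by 18 probe sets of the 45101 on the array, with the near-identical Bcl2a1 paralogues counted as 1 gene because they share 1 probe set. They are Mcl1, Bcl2, Bcl2l1, the Bcl2a1 paralogues, Bcl2l11, Bax, Bid, Bnip3 and Bnip3l. Messenger RNA was measured on 6 Affymetrix arrays, 3 of neutrophils grown from the bone marrow of miR-223 null mice and 3 of neutrophils grown from wild-type bone marrow. In both genotypes bone marrow progenitors spent 6 days in an isotope-labelling (SILAC) medium that held stem cell factor and G-CSF, the cytokine that drives granulocyte formation, then 42 hours without stem cell factor, and live cells were isolated by magnetic sorting (MACS). The age, sex and strain of the mice, the allele behind the null genotype and the number of mice or cultures per group were not given in the labels, so p-values rest on the spread among these arrays alone, and part of it may be technical. As live cells were selected, the values describe cells that were alive at harvest.

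BCL2 family proteins decide whether the outer membrane of the mitochondrion is opened, the step that commits a cell to apoptosis. Survival members (MCL1, BCL2, BCL-XL from Bcl2l1, and A1 from the Bcl2a1 genes) hold back the effectors BAX and BAK, and BH3-only members such as BIM (from Bcl2l11) and BID free or activate them. BNIP3 and BNIP3L (NIX) are outer membrane proteins with an atypical BH3 stretch, known mainly as receptors that mark mitochondria for removal by autophagy. Neutrophils are short-lived cells whose survival leans on MCL1 and A1, and BIM is a main driver of their death when cytokines are withdrawn.

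The sequences shown are the microRNA that separates the genotypes and the upstream regions of Bcl2l11 and Bnip3, members with the largest differences in each direction. The main arm of miR-223 lies at chrX:96242884-96242905 on the plus strand (RefSeq, GRCm38.p6), and capitals mark its seed, bases 2 to 8, which pairs with target mRNAs.
mmu-miR-223-3p: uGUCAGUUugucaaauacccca
An mRNA site that pairs with the whole seed reads AACTGAC. Sites for miR-223 in the members' mRNAs were not analysed here.

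The 250 bases upstream of the first Bcl2l11 start are shown (chr2:128125788-128126037, plus strand, GRCm38.p6), with capitals on the letters GTAAACA, the core bound by FOXO factors.
Bcl2l11 upstream: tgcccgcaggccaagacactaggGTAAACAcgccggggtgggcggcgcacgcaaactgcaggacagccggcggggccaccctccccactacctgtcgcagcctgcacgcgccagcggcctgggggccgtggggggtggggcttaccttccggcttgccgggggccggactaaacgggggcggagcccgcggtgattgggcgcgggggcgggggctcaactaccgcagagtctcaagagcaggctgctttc
The 250 bases upstream of Bnip3 (chr7:138909507-138909756, minus strand, GRCm38.p6) carry in capitals a palindrome that holds ACGTG, the core of hypoxia response elements, once on each strand. The same letters form an E-box.
Bnip3 upstream: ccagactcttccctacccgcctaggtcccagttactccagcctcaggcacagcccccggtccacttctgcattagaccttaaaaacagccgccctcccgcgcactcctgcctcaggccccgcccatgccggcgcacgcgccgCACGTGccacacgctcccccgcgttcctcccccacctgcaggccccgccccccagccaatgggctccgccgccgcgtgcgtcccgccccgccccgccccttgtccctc
Both motifs were searched on both strands in the 250 upstream bases of 32851 RefSeq promoter windows. GTAAACA was present in 3.17% of all windows and in 1 of the 13 windows that matched 10 of the members' gene symbols, the first of Bcl2l11. Bnip3l had no window, so its upstream bases were not searched for either motif. ACGTG was present in 16.6% of all windows and in 2 of the 13, those of Bnip3 and Bax. Such matches are letters in a window, and binding was not measured.

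All values are log2 intensities as deposited. The arrays shared one scale, with medians from 4.71 to 4.73 and highest values of 14.98 to 14.99, and probe sets for bacterial tryptophan sequences averaged 2.77 to 2.86. Spiked poly-A controls averaged highest in both replicate 1 arrays, at 8.92 and 8.77, against 8.16 to 8.58 in the other 4. Arrays with the same replicate number deviated together (r = 0.70, 0.30 and 0.48 for numbers 1, 2 and 3), so each difference is given unpaired and, where the call changes, with the replicate number as a block. Null 3 with wild-type 2 (r = 0.41) and null 2 with wild-type 3 (r = 0.21) also deviated together. The check thus sets replicate 1 apart but does not settle how replicates 2 and 3 pair. Probe sets other than the members could not be given gene names, so neutrophil markers, markers of other cell types and miR-223 itself were not analysed here.

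Across the family, no member passed the unpaired test. With arrays blocked by replicate number, Bcl2l11 was lower at its 3 probe sets and Bnip3 and 1 of 2 Bnip3l probe sets were higher in null neutrophils, while no probe set of the survival genes, Bid or Bax passed. In bulk RNA, fewer cells of one kind and less RNA per cell cannot be told apart. Of the 18 probe sets, 17 passed the filter on low signal. None of the 17 passed unpaired at an adjusted p of 0.05 (limma, Benjamini-Hochberg over 27022 probe sets), where 0.189% of all tested probe sets did. An unadjusted p under 0.05 was found for 2 of the 17 and for 2881 of all 27022. With the replicate block, 5 of the 17 (29.4%) passed, against 10% of all probe sets tested. The 3 that fell were all of Bcl2l11, against a background of 5.05% for falls, and the 2 that rose were of Bnip3 and Bnip3l, against 4.96% for rises. As the 3 Bcl2l11 probe sets read 1 gene, the 5 stand for 3 genes. The median SE with the block was 0.064 log2 units among the 17 and 0.096 among all tested. The shares of 29.4% and 10% thus compare probe sets of unlike precision. With the block but no intensity trend in the variance, 0 of the 17 passed by limma, where 191 of all 27022 did. In that fit 6 of the 17 had an unadjusted p under 0.05, and the count over all probe sets was not taken. In the blocked fit that kept the trend it was 9 of the 17 and 7073 of all 27022. With the block and the trend, 5 members passed without the pair of replicate 1, where 2045 of all 27022 probe sets did. Without the pair of replicate 2 it was 2 against 606, and without that of replicate 3 it was 5 against 2319. The difference had the same sign in all 3 replicate pairs for 11 of 17 members (64.7%), against 46.6% of all probe sets, and the genotypes did not overlap for 2 of 17 (11.8%), against 16.8%. The median difference was -0.05 log2 units among the 17 and -0.01 among all tested.

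**Figure D1:**
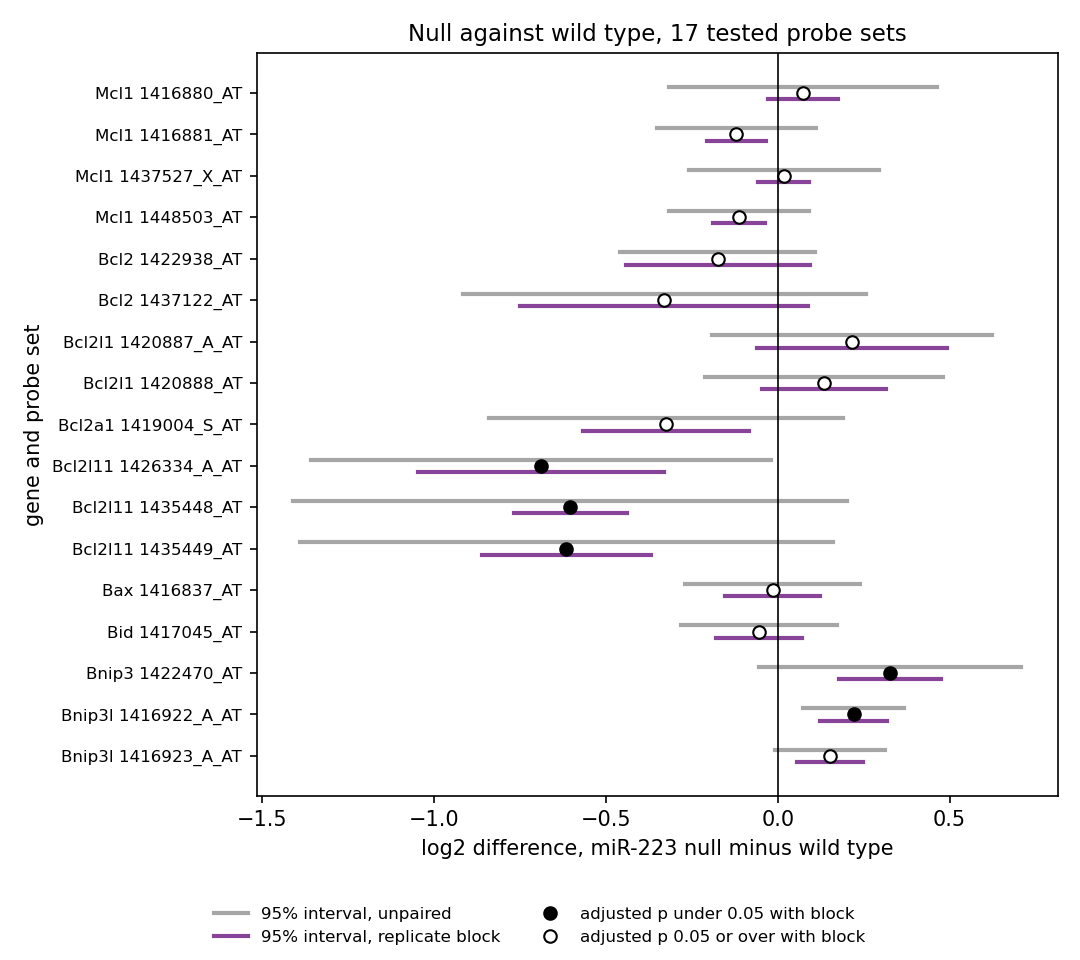
Log2 difference, miR-223 null minus wild type, of the 17 tested probe sets, with 95% intervals from the unpaired fit (grey) and from the fit with a replicate block (purple). Filled points passed an adjusted p of 0.05 with the block: the 3 of Bcl2l11 lie between -0.60 and -0.69, Bnip3 at 0.33 and 1 of Bnip3l at 0.22.

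Bcl2l11, which encodes the BH3-only killer BIM, showed the largest differences of the family, and it was lower in null neutrophils at all 3 probe sets and in all 3 replicate pairs. At 1426334_A_AT, null arrays 1, 2 and 3 read 6.44, 6.81 and 6.72 and wild-type arrays 6.64, 7.63 and 7.77. Wild-type 2 and 3 lay well above every null array, while wild-type 1 lay within the null range, so the genotypes overlap through that array. At 1435448_AT the null arrays read 8.25, 9.06 and 9.11, and the wild-type arrays 8.69, 9.68 and 9.86. At 1435449_AT they read 8.02, 8.71 and 8.70 against 8.37, 9.26 and 9.64. The layout was the same at these last 2 probe sets: replicate 1 was lowest in each genotype, and within each number the null array was lower.

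Group means for 1426334_A_AT, null then wild type, were 6.66 ± 0.19 and 7.35 ± 0.62 (SD, n = 3 each). The level in null arrays was thus 62.0% of wild type (log2 difference -0.69, SE 0.29, limma adjusted p = 0.458 unpaired). For 1435448_AT the means were 8.81 ± 0.49 and 9.41 ± 0.63 (SD, n = 3 each), 65.8% of wild type (log2 difference -0.60, SE 0.35, limma adjusted p = 0.604). For 1435449_AT they were 8.47 ± 0.40 and 9.09 ± 0.65 (SD, n = 3 each), 65.3% of wild type (log2 difference -0.62, SE 0.33, limma adjusted p = 0.578). Unpaired, then, none passed, and the 95% interval kept clear of no difference at 1426334_A_AT alone, where it ran from 39.0% to 98.7% of wild type.

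Within replicate numbers 1, 2 and 3 the difference was -0.19, -0.82 and -1.05 log2 units at 1426334_A_AT, -0.45, -0.62 and -0.75 at 1435448_AT, and -0.35, -0.56 and -0.94 at 1435449_AT. It was smallest in the replicate 1 pair and largest in the replicate 3 pair at each of them. With the replicate block the SEs were 0.15, 0.07 and 0.11 log2 units and all 3 probe sets passed (limma adjusted p = 0.0339, 0.00405 and 0.0150). The 95% intervals for the level in null, as a percentage of wild type, were then 48.4% to 79.5%, 58.7% to 73.7% and 55.1% to 77.4%. Averaged into 1 value per gene, Bcl2l11 stood at 64.3% of wild type (limma adjusted p = 0.0140 with the block and 0.544 without). By the size of a fall, the 3 probe sets ranked 121st, 183rd and 173rd of 27022.

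The blocked calls of Bcl2l11 depended on the variance model and on single pairs. Without the intensity trend none of the 3 passed (limma adjusted p = 0.111, 0.0570 and 0.0827), without the replicate 2 pair only 1435448_AT did (adjusted p = 0.143, 0.0284 and 0.0574), and without the replicate 3 pair 1426334_A_AT was lost (adjusted p = 0.0807). With both replicate 1 arrays left out, an alternative chosen after seeing the data, the 3 passed without any block, at -0.94, -0.68 and -0.75 log2 units (limma adjusted p = 0.00807, 0.00989 and 0.0187). Single arrays moved the unpaired differences both ways, with none called. Without wild-type 1 they were -1.04, -0.96 and -0.98 log2 units. They shrank to -0.58, -0.32 and -0.39 without null 1 and to -0.48, -0.38 and -0.34 without wild-type 3.

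**Figure D2:**
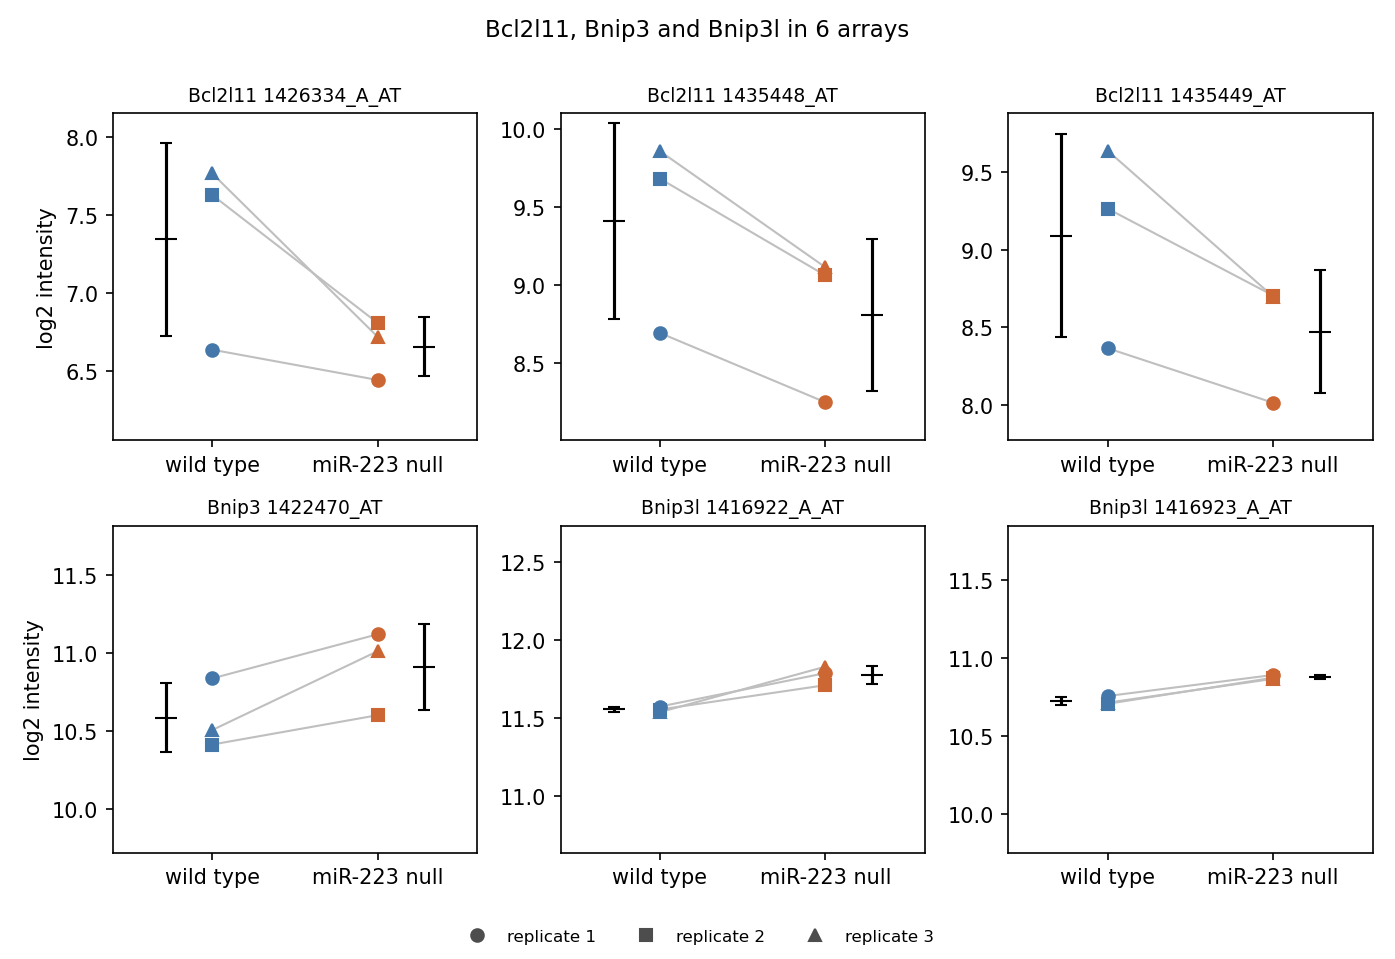
Log2 intensity of Bcl2l11 (3 probe sets), Bnip3 (1) and Bnip3l (2) on each array, in panels of equal height; shapes give the replicate number, grey lines join arrays of the same number, and bars show the mean ± SD of 3 arrays. Every line falls from wild type to null for Bcl2l11 and rises for Bnip3 and Bnip3l, and replicate 1 is the lowest array of each genotype for Bcl2l11.

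Bid, whose BH3-only protein links death receptors to mitochondria once it is cleaved, differed by -0.05 log2 units. Probe set 1417045_AT read 9.31, 9.23 and 9.14 in null and 9.37, 9.25 and 9.22 in wild-type arrays 1, 2 and 3. The groups overlap, and each null array was slightly lower than its numbered partner. The means were 9.23 ± 0.08 and 9.28 ± 0.08 (SD, n = 3 each; SE of the difference 0.10, limma adjusted p = 0.907). The unpaired 95% interval ran from 82.3% to 113% of wild type.

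Bax, the effector that forms pores in the outer membrane, read 9.19, 8.96 and 8.93 in null and 9.12, 9.01 and 8.99 in wild-type arrays at 1416837_AT. Replicate 1 was the highest array in both genotypes, and the groups overlap fully. The difference was -0.02 log2 units (SE 0.11, limma adjusted p = 0.984), with an unpaired 95% interval from 83.0% to 118% of wild type. Its sign turned with single arrays, for example to 0.03 without null 3.

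Both mitophagy receptors read higher in null neutrophils, and each of their 3 probe sets did so in 3 of 3 pairs. Bnip3, which hypoxia is known to induce, read 11.12, 10.60 and 11.01 in null and 10.84, 10.41 and 10.50 in wild-type arrays 1, 2 and 3 at 1422470_AT. Null 2 lay below wild-type 1, so the groups overlap, but every null array exceeded the wild-type array of its number. The means were 10.91 ± 0.27 and 10.58 ± 0.22 (SD, n = 3 each), 125% of wild type (log2 difference 0.33, SE 0.16, limma adjusted p = 0.546 unpaired). The pair differences were 0.28, 0.19 and 0.51 log2 units, and with the block the rise passed (SE 0.06, limma adjusted p = 0.0228). The blocked 95% interval ran from 113% to 139% of wild type.

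Bnip3l, which removes mitochondria from maturing red cells, differed less but with little spread. At 1416922_A_AT the null arrays read 11.79, 11.71 and 11.83 and the wild-type arrays 11.57, 11.55 and 11.54, so the groups did not overlap. At 1416923_A_AT they read 10.89, 10.88 and 10.87 against 10.76, 10.71 and 10.72, again with no overlap. These were the only members among the 17 whose genotypes separated completely, as those of 16.8% of all tested probe sets did.

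The first Bnip3l probe set averaged 11.78 ± 0.06 in null and 11.55 ± 0.02 in wild-type arrays (SD, n = 3 each), 117% of wild type. It had the lowest unadjusted p of the 17 unpaired, 0.0088 by limma, yet its adjusted p was 0.273. With the block it passed (log2 difference 0.22, SE 0.04, limma adjusted p = 0.0200). The second probe set averaged 10.88 ± 0.01 and 10.73 ± 0.03 (SD, n = 3 each), 111% of wild type, and passed neither unpaired nor with the block (log2 difference 0.15, limma adjusted p = 0.489 and 0.0607). Its pair differences were 0.14, 0.17 and 0.15 log2 units. Averaged into 1 value per gene, Bnip3l stood at 114% of wild type (limma adjusted p = 0.0295 with the block and 0.359 without). Without the intensity trend neither Bnip3 nor Bnip3l passed with the block (limma adjusted p = 0.120 for Bnip3, 0.146 and 0.230 for Bnip3l). Without the replicate 2 pair Bnip3 passed (adjusted p = 0.0429) and Bnip3l 1416922_A_AT did not (adjusted p = 0.0785). With both replicate 1 arrays left out and no block, neither gene passed (limma adjusted p = 0.160 for Bnip3, 0.0838 and 0.179 for Bnip3l).

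No survival gene passed in either fit. Of the 9 tested probe sets of Mcl1, Bcl2, Bcl2l1 and the Bcl2a1 paralogues, 4 were higher and 5 lower in null arrays, from -0.33 to 0.22 log2 units. Their adjusted p by limma ran from 0.677 to 0.984 unpaired and from 0.0718 to 0.799 with the block.

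Mcl1, whose short-lived protein neutrophils need to survive, gave differences of opposite sign at its 4 probe sets. At 1448503_AT the null arrays read 12.53, 12.71 and 12.73 and the wild-type arrays 12.61, 12.83 and 12.87, each null array below its numbered partner. At 1416881_AT they read 11.67, 11.87 and 11.90 against 11.76, 12.03 and 12.01, with the same order within numbers. At 1416880_AT they read 11.54, 12.00 and 12.10 against 11.55, 11.92 and 11.95, where the null array was higher for replicates 2 and 3. The differences were -0.11 and -0.12 log2 units at the first 2 (blocked limma adjusted p = 0.0718 and 0.0861) and 0.07 at the third (0.338).

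The remaining Mcl1 probe set, 1437527_X_AT, whose suffix marks probes that may cross-hybridise, read 12.37, 12.68 and 12.69 in null and 12.35, 12.67 and 12.66 in wild-type arrays. Its difference was 0.02 log2 units, and the arrays of each number lay within 0.03 of each other. As 1 value per gene, Mcl1 stood at 97.6% of wild type (log2 difference -0.04, unpaired 95% interval -0.31 to 0.24, limma adjusted p = 0.955). The difference between probe sets 1416880_AT and 1416881_AT was itself 0.19 log2 units higher in null than in wild-type arrays, more than the per-gene difference. After quantile normalization with the block, 1448503_AT passed at -0.13 log2 units (limma adjusted p = 0.0469).

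The Bcl2a1 paralogues, which encode the survival protein A1 and are induced by inflammatory signals, are read together by 1419004_S_AT. It read 7.19, 6.49 and 6.45 in null and 7.29, 6.84 and 6.97 in wild-type arrays. Null 2 and 3 lay below every wild-type array, and null 1 lay above 2 of them. The means were 6.71 ± 0.42 and 7.03 ± 0.23 (SD, n = 3 each), 79.8% of wild type. The difference of -0.33 log2 units did not pass unpaired (SE 0.22, limma adjusted p = 0.677) or with the block (SE 0.10, limma adjusted p = 0.0930). Without null 1 it was -0.57 log2 units, and it shrank to -0.21 without null 2, -0.20 without null 3 and -0.20 without wild-type 1. Which paralogue gave the signal cannot be read from a shared probe set.

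Bcl2l1, whose main product is the survival protein BCL-XL, read higher in null 3 than in any other array. At 1420887_A_AT the null arrays read 6.96, 7.21 and 7.54 and the wild-type arrays 6.84, 7.23 and 6.98. At 1420888_AT they read 8.58, 8.83 and 9.11 against 8.59, 8.75 and 8.78. The differences of 0.22 and 0.13 log2 units (limma adjusted p = 0.740 and 0.823) came mainly from the replicate 3 pair, at 0.55 and 0.33. Without null 3 they were 0.07 and 0.00.

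Bcl2, the founding survival member, gave dim signals. At 1422938_AT the null arrays read 5.49, 5.29 and 5.23 and the wild-type arrays 5.47, 5.68 and 5.38, a difference of -0.17 log2 units (SE 0.12, limma adjusted p = 0.687). At 1437122_AT they read 3.95, 4.12 and 4.99 against 4.57, 4.74 and 4.74. Null 3 lay above all wild-type arrays there and null 1 and 2 below all of them, so the difference of -0.33 log2 units (SE 0.25, limma adjusted p = 0.719) had no common direction. Without the replicate 3 pair it passed with the block at -0.62 log2 units (limma adjusted p = 0.0331). The third, 1427818_AT, fell under the filter and read 3.39 to 3.47 in null and 3.31 to 3.35 in wild-type arrays, the dimmest of the members. With no filter its difference was 0.11 log2 units (limma adjusted p = 0.779).

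**Figure D3:**
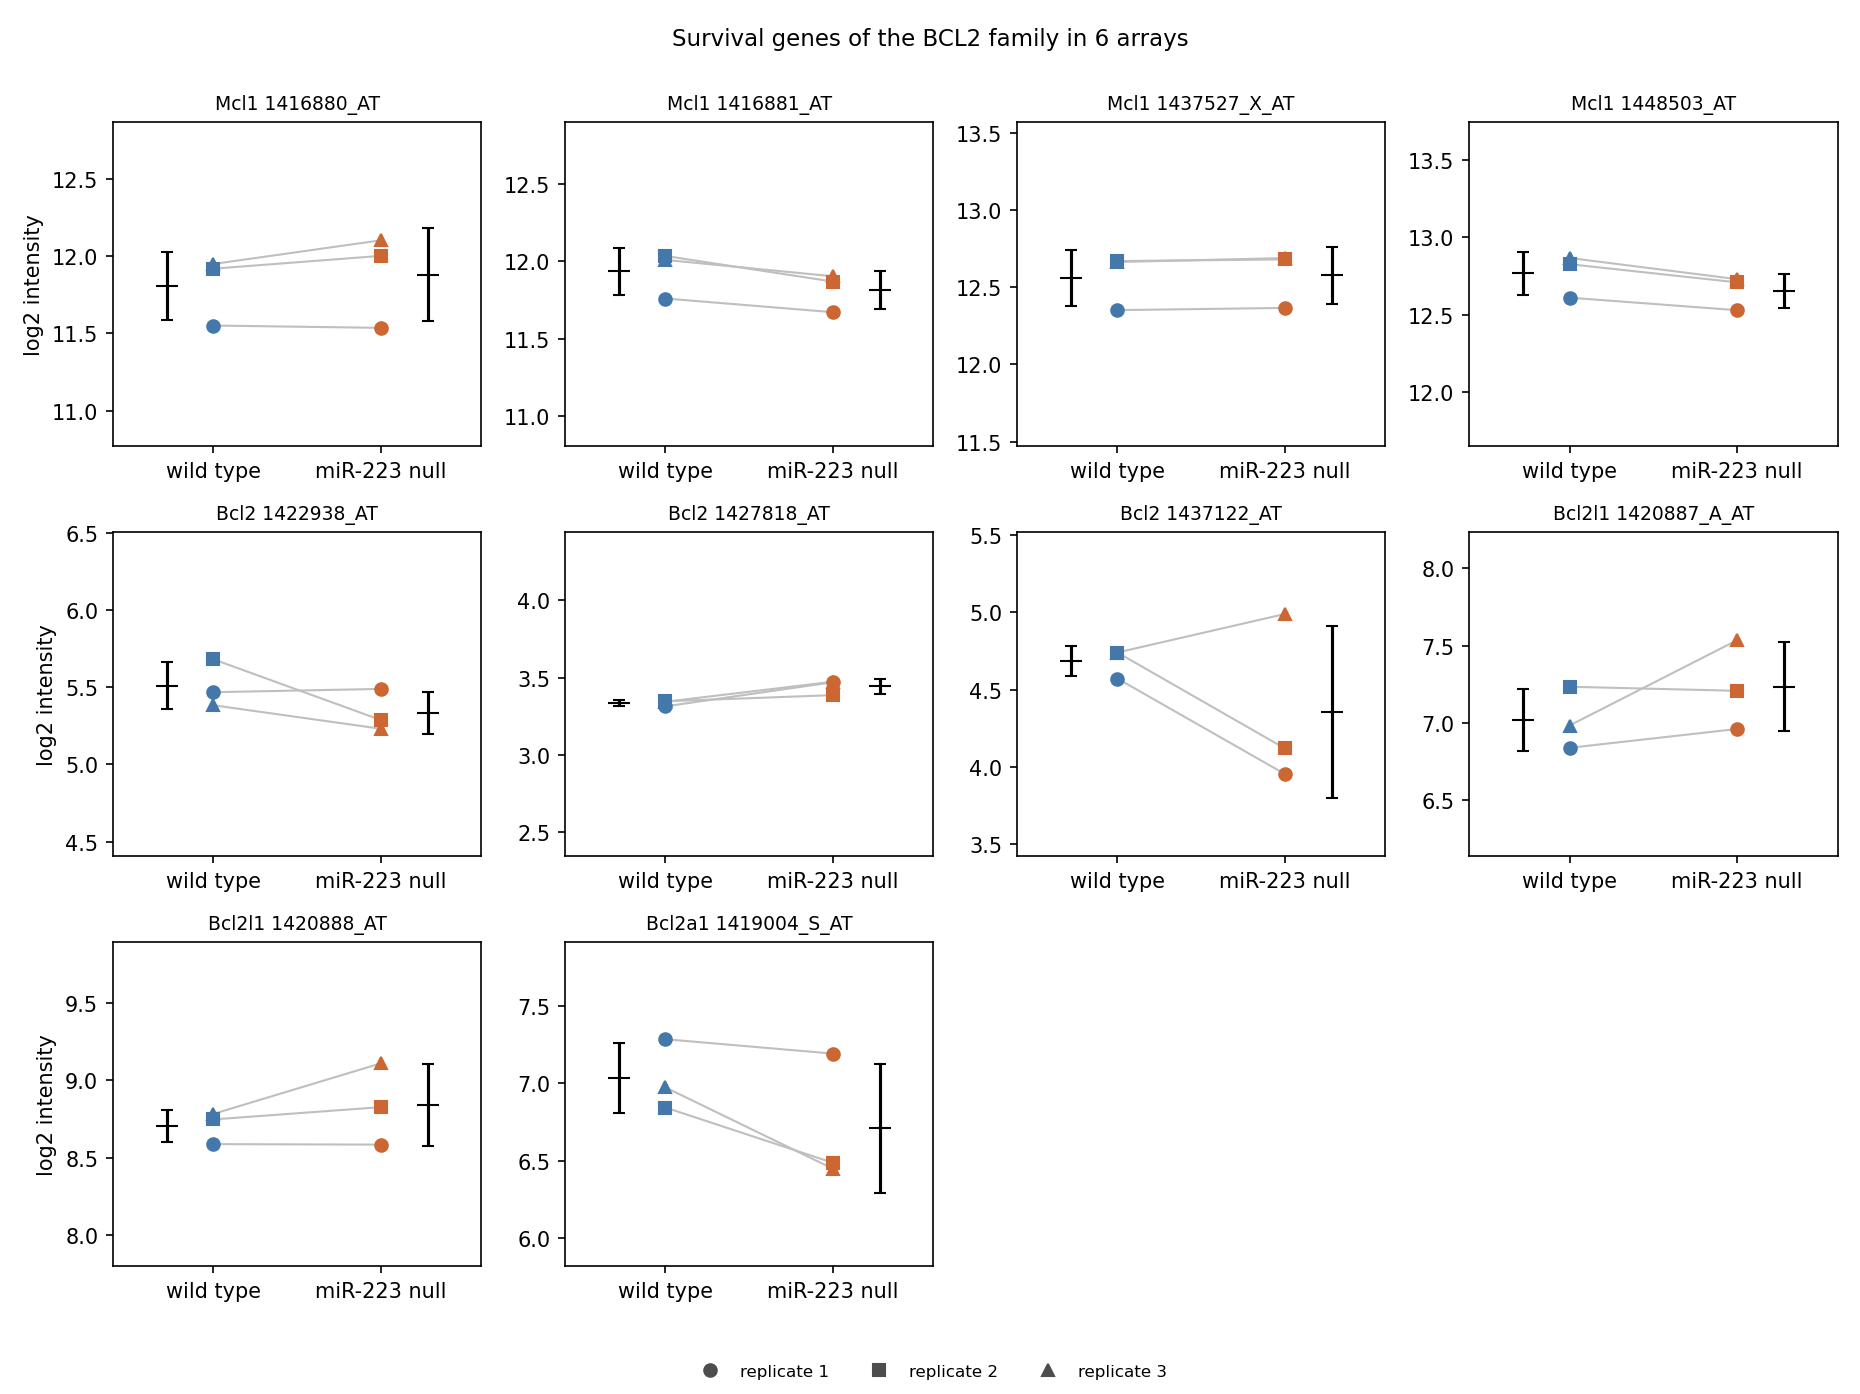
Log2 intensity of the 10 probe sets of Mcl1, Bcl2, Bcl2l1 and the Bcl2a1 paralogues on each array, in panels of equal height; shapes give the replicate number, grey lines join arrays of the same number, and bars show the mean ± SD of 3 arrays. Lines are nearly level for Mcl1, and replicate 1 is the lowest array of each genotype at all 4 of its probe sets.

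The members also differed between replicate numbers, in most cases by more than between genotypes. Replicate 1 differed from the mean of replicates 2 and 3 in the same direction in both genotypes for 16 of the 17 tested probe sets, lower for 10 and higher for 6. The average of this shift over the genotypes was larger than the genotype difference for 14 of the 17. Shares of all probe sets for these counts were not computed. The median size of the shift was 0.32 log2 units among the 17 and 0.17 among all 27022. That of the genotype difference was 0.17 and 0.11, so the shift had the larger median over all probe sets too. At 1435448_AT, Bcl2l11 was lower in replicate 1 by 0.84 log2 units in null and by 1.08 in wild-type arrays, and its 3 probe sets ranked 799th, 211th and 304th of 27022 by the size of this shift. Mcl1 was lower in replicate 1 at all 4 probe sets, by 0.19 to 0.52 in null and 0.24 to 0.38 in wild-type arrays. The Bcl2a1 paralogues were higher in replicate 1, by 0.73 in null and 0.38 in wild-type arrays, and Bnip3 by 0.31 and 0.38. For Bnip3l the shifts were 0.02 to 0.05. The poly-A control levels given above differ between the same arrays, and their part in the shift was not tested. The labels do not say what the number stands for.

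**Figure D4:**
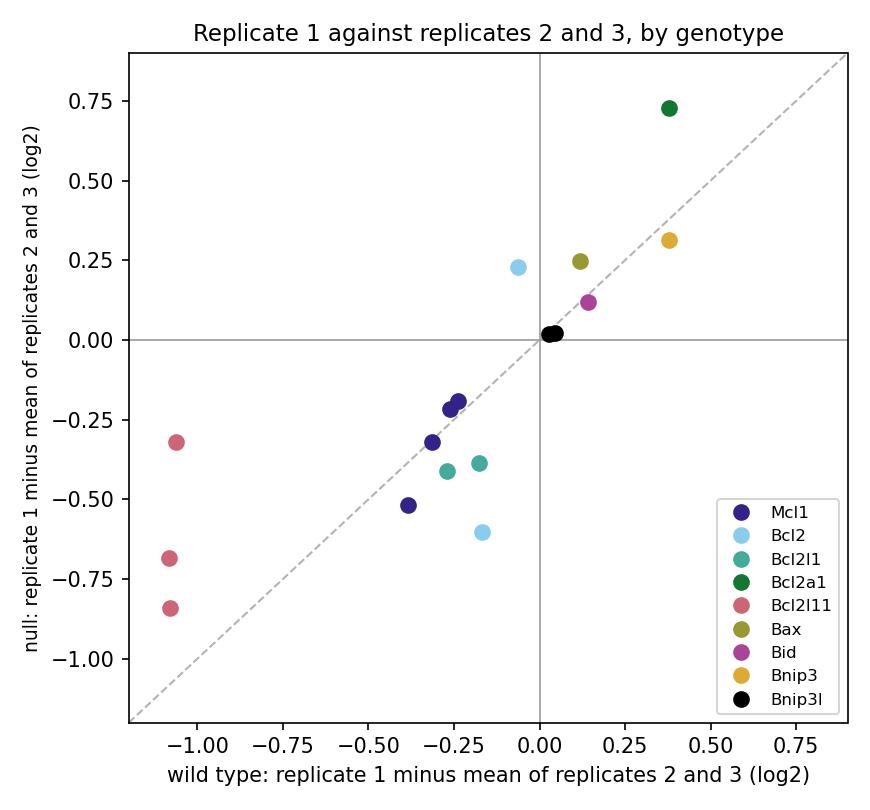
Replicate 1 minus the mean of replicates 2 and 3, in log2 units, in wild-type (horizontal) and null arrays (vertical) for the 17 tested probe sets, coloured by gene; the dashed line marks equal shifts. Bcl2l11 lies farthest to the left, near -1.1 in wild type and -0.32 to -0.84 in null, the Bcl2a1 paralogues and Bnip3 lie at the upper right, and Bnip3l lies near 0.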

How the data were processed

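The deposited table holds log2 intensity values of 45101 probe sets on 6 arrays, the log2 scale being read from their range. The submitters' processing notes name GCOS; how background, normalization and probe summary were handled is not given in the sources used here. Values were used as the authors deposited them, so a difference is one relative to the rest of its array. The 64 control probe sets were set aside, and a filter kept the 27022 probe sets whose mean over the arrays reached the 40th percentile, 4.08. The genotypes were compared in limma 3.58.1 under R 4.3.3 with lmFit and eBayes (intensity trend), two-sided, with Benjamini-Hochberg adjustment over all kept probe sets at 0.05. The code of the unpaired fit was tested on simulated data with independent noise in each array. That test does not bear on the blocked fit.

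The pairing comes from the data: deviations of same-numbered arrays correlated above 0.1 in all 3 pairs. Null 3 with wild-type 2 (r = 0.41) and null 2 with wild-type 3 (r = 0.21) also met this mark. It therefore cannot tell the pairing of replicates 2 and 3 from its swap. Members and lists were chosen with earlier results of these data known. Every member is named. The members' genes come from the list that defines them. The planned lists of other cell death and mitophagy genes, cell type markers, and probe sets with similar patterns need gene names for other probe sets and were not used here. Alternatives were the filter, quantile normalization, median centring, no trend, control probe sets kept, 1 value per gene, the replicate block and leaving out arrays. The number of arrays limits precision.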

Additional observations from a re-analysis of the deposited data

How the results depend on the processing

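Among the members tested, the count of calls stayed at 0 in every unpaired fit of all 6 arrays (no filter, the 60th percentile, quantile normalization, median centring, no trend, control probe sets kept, 1 value per gene) and when any 1 array was left out. Those tested were 18 with no filter, 15 at the 60th percentile, 9 genes with 1 value per gene, and 17 otherwise. Over all probe sets, leaving out 1 array gave 0 to 58 calls in place of 51. The replicate block gave 5 member calls and 2703 in all, and after quantile normalization 6 and 2575. Without the pair of replicate 1 the block gave 5 and 2045, without that of replicate 2 it gave 2 and 606, and without that of replicate 3 it gave 5 and 2319. With the block and no intensity trend it gave 0 member calls and 191 in all. With both replicate 1 arrays left out and no block, chosen after seeing the data, 3 and 1072 were called. With the block and 1 value per gene, also chosen later, 3 of 9 genes were called. For that last fit the count over all values tested was not taken. On single probe sets the block called 10% of all tested. Of 17 probe sets, 13 kept their sign in all settings that tested them, and Mcl1 1416880_AT and 1437527_X_AT, Bcl2l1 1420888_AT and Bax, none of them called, did not. With all 6 arrays as deposited the block changed the calls of these 5 alone. With the block, Mcl1 1448503_AT was also called after quantile normalization and Bcl2 1437122_AT without the pair of replicate 3. Bcl2 1422938_AT and 1437122_AT lie under the 60th percentile and have no value there. Alternatives for other cell death and mitophagy genes were not run, since their probe sets were not paired with genes. Signal limits Bcl2 1427818_AT most, at 3.47 or less where the probe sets for bacterial tryptophan sequences averaged up to 2.86.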

Other observations

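Probe sets of 1 gene kept their distance from each other unevenly. For Bcl2l11 the log2 difference between 1435448_AT and 1435449_AT was 0.33 ± 0.09 in null and 0.32 ± 0.10 in wild-type arrays (SD, n = 3 each), so these 2 tracked each other across genotypes. The difference between 1426334_A_AT and 1435448_AT varied more in null arrays, at -2.15 ± 0.31 (SD, n = 3), than in wild-type arrays, at -2.07 ± 0.02 (SD, n = 3). For Mcl1, 1416881_AT and 1448503_AT differed by -0.84 ± 0.02 and -0.83 ± 0.04 (SD, n = 3 each) in null and wild-type arrays, whereas 1416880_AT and 1416881_AT differed by 0.07 ± 0.18 and -0.13 ± 0.08 (SD, n = 3 each). For Bnip3l the distance was 0.90 ± 0.06 in null and 0.83 ± 0.02 in wild-type arrays (SD, n = 3 each). The differences in spread were not tested.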
